A study of Homo sapiens with 2 samples.

Results

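Zinc finger transcription factor genes were compared between 2 RNA-seq libraries of MiaPaCa, an established cell line from a human pancreatic carcinoma, 1 from Scr control cells and 1 from MYB-silenced cells. Members were all rows of the authors' deposited table whose gene name starts with ZNF, ZFP, ZSCAN, ZKSCAN, ZBTB or KLF, with KLF4 left out. They numbered 18 of the 836 loci in the table: 14 ZNF genes, 2 ZBTB genes, 1 ZSCAN gene and 1 KLF gene, and no ZFP or ZKSCAN gene. The Scr control cells carried the plasmid pGFP-V-RS-Scr and are labelled as MYB-overexpression, although the protocols describe no MYB expression plasmid. The MYB-silenced cells carried pGFP-V-RS-shMYB, a short hairpin RNA construct against the transcription factor MYB. Both are pools of stably transfected cells kept under 2 μg/ml puromycin, and neither is a single clone.

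C2H2 zinc finger proteins hold a zinc ion in each finger with a pair of cysteines and a pair of histidines, and read DNA through arrays of such fingers. Many of them also carry a KRAB box, which recruits the corepressor TRIM28 and through it histone methylation, and which is known for the silencing of transposable elements. KRAB genes arose by repeated duplication and stand in clusters, the largest of them on chromosome 19. ZBTB proteins instead carry a BTB domain, which pairs with itself and binds corepressors such as NCOR1, SCAN domains mediate pairing between proteins, and KLF proteins bind GC-rich and CACCC boxes near promoters.

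All levels are FPKM, in which fragments are divided by transcript length and library size, so levels of different genes can be set side by side. Each group has 1 library, so no value below has an error, no test was run, and sequencing depth is unknown. The table holds only loci with an unadjusted p-value of up to 0.04995, so each member differs between the libraries by the authors' selection, and the size of its difference is that of a selected gene. Log2 ratios were taken after 0.5 FPKM had been added to both values, MYB-silenced over Scr control, so differences of weakly expressed genes come out smaller than they are. The targeted gene, MYB, had 981 FPKM in control cells and 0.554 FPKM in silenced cells. Of 22 marker genes of epithelial and other cell types, only the muscle gene DES was in the table, so the labelled cell type could not be checked. In bulk RNA, fewer cells of a kind and less RNA per cell cannot be told apart.

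The zinc finger genes were split in direction. The MYB-silenced library had lower values for 10 members (55.6%) and higher values for 8, beside 61.7% lower and 38.3% higher among all listed loci, so the split of the members lies close to that of the table. A mean of 1 FPKM or more was reached by 17 members, of which 3 were lower by at least 2-fold on the log2 ratio scale (17.6%, beside 24.7% of all such loci) and 4 were higher (23.5%, beside 19.9%). ZNF516 was the member below that level. Ratios of the lower members ran from -1.24 to -0.84 and those of the higher members from 0.93 to 1.26, a narrow band on each side that the selection of the table shapes. Control levels ran from 0.371 to 24.3 FPKM, and silenced levels from 0.840 to 25.3 FPKM. An unadjusted p-value of up to 0.01 in the authors' deposited table was given to 6 members (33.3%), beside 30.3% of all listed loci.

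**Figure D1:**
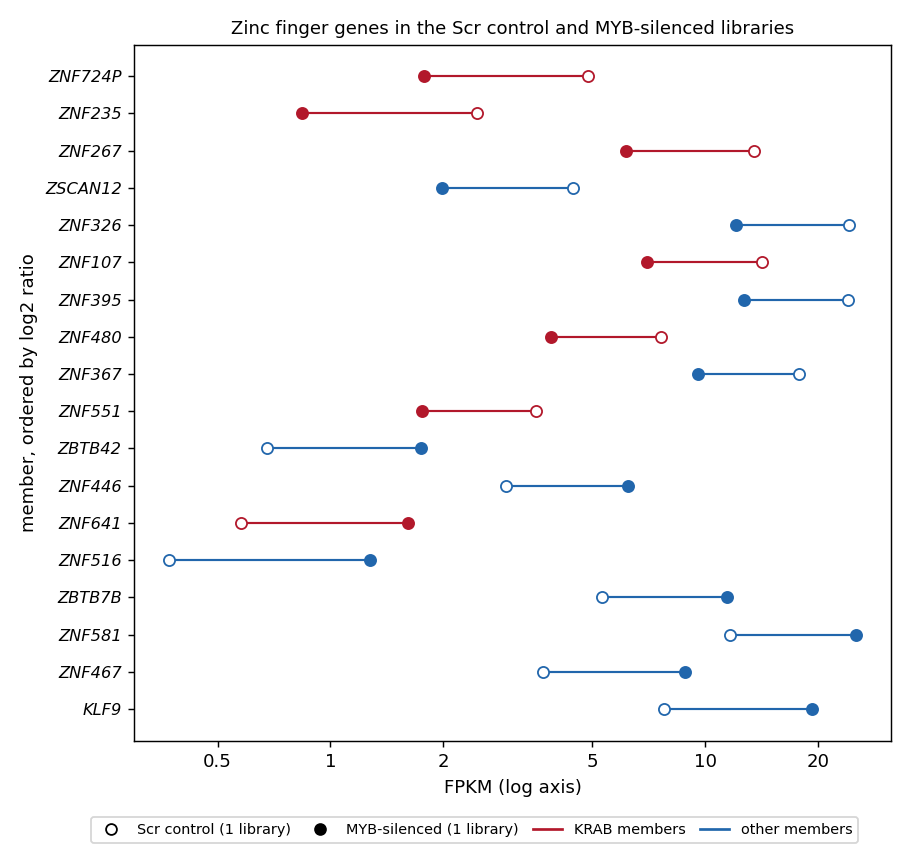
FPKM on a log axis (x) of the 18 members (y, ordered by log2 ratio), with open circles for the Scr control library, filled circles for the MYB-silenced library, and colour for the KRAB class. Filled circles lie left of the open ones for 10 members, 6 of them KRAB genes, and right of them for 8, among which ZNF641 is the KRAB gene.

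Of the members with a KRAB match, 6 of 7 were lower, and of those without it 7 of 11 were higher. Among all listed loci 61.7% were lower and 38.3% higher. A match to the KRAB A box was searched in the longest reading frames of GENCODE release 29 transcripts, and 7 members matched at least 11 of its 20 conserved positions. The 7 KRAB members, 85.7% of them lower in the MYB-silenced library, had a median log2 ratio of -0.97. The 11 other members, 36.4% of them lower, had a median of 0.97, or 0.95 over the 10 with a mean of at least 1 FPKM. The difference between the classes was not tested, since genes are not replicates and each group has 1 library. ZNF641, the higher KRAB member, was the weakest match, with 12 conserved positions against 18 to 20 for the lower 6. Just outside the threshold stood ZNF446 with 9 positions, while the remaining members matched 5 or 6. ZNF446, which is described as holding a SCAN domain as well as a KRAB box, was higher, so counting it in would give 6 lower and 2 higher KRAB members.

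The KRAB members also had the longer finger arrays by median. The 6 lower KRAB members held 10 to 16 matches to the C2H2 pattern (a cysteine pair and a histidine pair at finger spacing), with a median of 14. ZNF641 held 5. Among the other members the number ran from 1 to 13, with a median of 3. ZNF467 had 13, ZNF516 had 10 and ZSCAN12 had 9, all above ZNF641. Median reading frame length was 670 amino acids for the KRAB members and 513 for the others.

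ZNF724P (chr19:23401492-23433172, hg19), a KRAB gene whose current symbol is ZNF724, had the lowest log2 ratio of all members on the scale used here. It had 4.88 FPKM in control cells and 1.77 FPKM in silenced cells, a log2 ratio of -1.24. ZNF235 (chr19:44790501-44809178) came next, at 2.47 and 0.840 FPKM, with a ratio of -1.15, and its silenced level was 34% of the control level. This is the lowest percentage among the members, below the 36.4% of ZNF724P. In the authors' deposited table their unadjusted p-values were 0.00305 and 0.00975.

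ZNF267 (chr16:31885079-31928629) was more strongly expressed, at 13.5 and 6.17 FPKM, a log2 ratio of -1.07. ZNF107 (chr7:64126501-64171401), which has the most finger matches of all members with 16, stood at 14.2 and 7.02 FPKM (ratio -0.97). These were the KRAB members with the highest levels, and both were near 50% of control in the MYB-silenced library, at 45.7% for ZNF267 and 49.3% for ZNF107. ZNF480 (chr19:52800426-52829174) had 7.61 and 3.88 FPKM, a ratio of -0.89. ZNF551 (chr19:58193337-58202004) had 3.53 and 1.76 FPKM, a ratio of -0.84, the smallest difference of the lower members on this scale. The authors' deposited table gives unadjusted p-values of 0.00725 for ZNF267, 0.0115 for ZNF107, 0.0195 for ZNF480 and 0.0413 for ZNF551, the last being the highest of all members. ZNF641 (chr12:48733548-48745029), by contrast, had 0.576 FPKM in control cells and 1.61 FPKM in silenced cells, a ratio of 0.97, and its level in the control was the lowest of the KRAB members.

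The 4 lower members without a KRAB match included the 3 members with the highest control levels, ZNF326, ZNF395 and ZNF367. ZNF326, a subunit of the DBIRD complex that couples transcript elongation to splicing, had 24.3 FPKM in the control library and stood at 12.1 FPKM in the MYB-silenced library, a log2 ratio of -0.98 (chr1:90460678-90498970). ZNF395 (chr8:28203102-28243977), also known as a factor binding the huntingtin gene promoter, had 24.1 and 12.7 FPKM (ratio -0.90). ZNF367 (chr9:99148225-99180669) had 17.8 and 9.55 FPKM (ratio -0.87). ZNF326, ZNF395 and ZNF367 held only 1 or 2 finger matches each, so they differ from the KRAB members in structure although they share the direction. ZSCAN12 (chr6:28346598-28367544), a SCAN domain gene with 9 finger matches, had 4.44 and 1.99 FPKM (ratio -0.99). In the authors' deposited table the unadjusted p-values of these 4 genes ran from 0.0142 to 0.0385.

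KLF9, a GC-box factor known as a glucocorticoid and thyroid hormone response gene, had the highest log2 ratio of the members on the scale used here, and their lowest p-value. With a pseudocount of 0.1 in place of 0.5, ZNF516 and ZNF641 stood above it. It had 7.77 FPKM in control cells and 19.3 FPKM in silenced cells (chr9:72999513-73029573), a log2 ratio of 1.26, with an unadjusted p-value of 0.00165 in the authors' deposited table. Both ZBTB members were higher too. ZBTB7B (chr1:154975106-154991001), known as the factor that commits thymocytes to the CD4 lineage, had 5.33 and 11.4 FPKM, a ratio of 1.04. ZBTB42 (chr14:105266933-105271048) had 0.679 and 1.75 FPKM, a ratio of 0.93. The authors' deposited table gives them unadjusted p-values of 0.0071 and 0.0389.

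The other higher members belong to the ZNF group. ZNF467 (chr7:149461301-149470295), a factor that promotes fat cell formation in mice, had 3.69 and 8.87 FPKM, a log2 ratio of 1.16. ZNF581 (chr19:56154986-56156989) reached 25.3 FPKM from 11.6 FPKM, a ratio of 1.09, and was the most abundant member of the MYB-silenced library. ZNF446 (chr19:58987173-58992891) had 2.94 and 6.24 FPKM, a ratio of 0.97. ZNF516, a factor of the brown fat program, was the weakest member at 0.371 and 1.28 FPKM (chr18:74069637-74207146), and its plain FPKM ratio of 3.44 was the highest of all, against a log2 ratio of 1.03 after the pseudocount. In the authors' deposited table the unadjusted p-values were 0.0109 for ZNF467, 0.0142 for ZNF581, 0.0248 for ZNF446 and 0.00555 for ZNF516.

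The promoters of the 2 lowest and the 2 highest members with a mean of at least 1 FPKM and a single window are shown, because they stand at the ends of the range and MYB proteins bind the core AACNG. Windows run 5′ to 3′ in gene direction from 250 bases before to 50 bases after the gene start, from RefSeq (GRCh38.p14, a later build than hg19). Capitals mark AACNG on either strand, which includes CNGTT as its reverse complement, and matches on opposite strands may overlap. ZNF724 lies at chr19:23250345-23250644 (minus strand), ZNF235 at chr19:44304976-44305275 (minus strand), KLF9 at chr9:70414608-70414907 (minus strand) and ZNF467 at chr7:149773539-149773838 (minus strand).
ZNF724: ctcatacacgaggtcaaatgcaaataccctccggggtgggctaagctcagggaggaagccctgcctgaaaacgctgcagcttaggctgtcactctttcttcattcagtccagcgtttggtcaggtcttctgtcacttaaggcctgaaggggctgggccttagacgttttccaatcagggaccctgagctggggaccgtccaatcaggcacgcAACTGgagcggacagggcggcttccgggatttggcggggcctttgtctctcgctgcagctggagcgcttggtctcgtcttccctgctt
ZNF235: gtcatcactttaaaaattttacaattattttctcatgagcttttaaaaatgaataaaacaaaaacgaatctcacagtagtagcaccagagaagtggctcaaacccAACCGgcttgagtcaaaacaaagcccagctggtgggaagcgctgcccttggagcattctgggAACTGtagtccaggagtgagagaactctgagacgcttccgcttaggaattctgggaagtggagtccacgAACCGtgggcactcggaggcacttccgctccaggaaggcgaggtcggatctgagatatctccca
KLF9: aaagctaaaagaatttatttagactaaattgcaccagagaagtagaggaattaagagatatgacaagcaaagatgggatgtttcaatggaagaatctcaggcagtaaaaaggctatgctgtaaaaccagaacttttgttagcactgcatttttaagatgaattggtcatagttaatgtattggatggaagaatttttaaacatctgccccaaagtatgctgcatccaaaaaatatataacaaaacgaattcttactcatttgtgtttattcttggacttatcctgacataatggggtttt
ZNF467: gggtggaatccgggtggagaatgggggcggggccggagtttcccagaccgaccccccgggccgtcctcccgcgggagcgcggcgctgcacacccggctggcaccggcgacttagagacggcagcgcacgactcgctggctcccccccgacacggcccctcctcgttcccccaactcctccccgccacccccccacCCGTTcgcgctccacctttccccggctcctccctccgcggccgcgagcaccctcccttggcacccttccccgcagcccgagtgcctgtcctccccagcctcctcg

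ZNF235 has 3 matches, which start 145, 83 and 14 bases before the gene start. ZNF724 has 1 match, 38 bases before the start, ZNF467 has 1, on the opposite strand at 55 bases before it, and the KLF9 window has none. Windows were used for 16 of the 18 members, 21 windows in all. AACNG was found in 15 of the 21 (71.4%), beside 77.2% of all 35116 windows in the table, so the members hold it about as often as promoters at large. By direction it stood in 9 of 10 windows of lower members and 6 of 11 of higher members, from 8 genes each. Counts here are of windows, and ZSCAN12, ZBTB7B, ZNF446 and ZNF641 have more than 1 window each. By gene, only ZNF326 among the lower members, and KLF9 and ZNF516 among the higher, had no AACNG match in any window. The motif GGGCGG, the GC box bound by SP and KLF proteins, stood in 15 of 21 member windows (71.4%), beside 45.0% of all windows, with 6 of 10 for lower and 9 of 11 for higher members. Window GC content had a median of 62% for member windows and 58.7% for all windows, with 58.8% for lower and 70% for higher members. The KLF9 window had the lowest of the member windows, 32.7%. A match says only that these letters are present, and no binding was measured.

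On chromosome 19 the 4 members with a KRAB match were lower, while most listed loci were higher. Only 19.4% of the 62 listed loci on chromosome 19 were lower in the MYB-silenced library, yet 4 of the 6 members there were lower, as against 8 of the 56 other loci (14.3%). The 4 lower ones are the KRAB genes ZNF724P, ZNF235, ZNF480 and ZNF551, and the 2 higher ones, ZNF581 and ZNF446, fell below the KRAB threshold. ZNF446 matched 9 positions and is described as holding a KRAB box. Counting it in would add a higher KRAB gene on this chromosome. The difference between members and other loci of the chromosome was not tested. Among the 12 members on other chromosomes, 6 were lower and 6 higher, beside 65.1% lower among all listed loci there. The median log2 ratio was -0.86 for the 6 chromosome 19 members and 0.97 for the 55 other loci of the chromosome with a mean of at least 1 FPKM. With ratios on both sides of 0, the members' median rests on which side holds the middle genes.

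**Figure D2:**
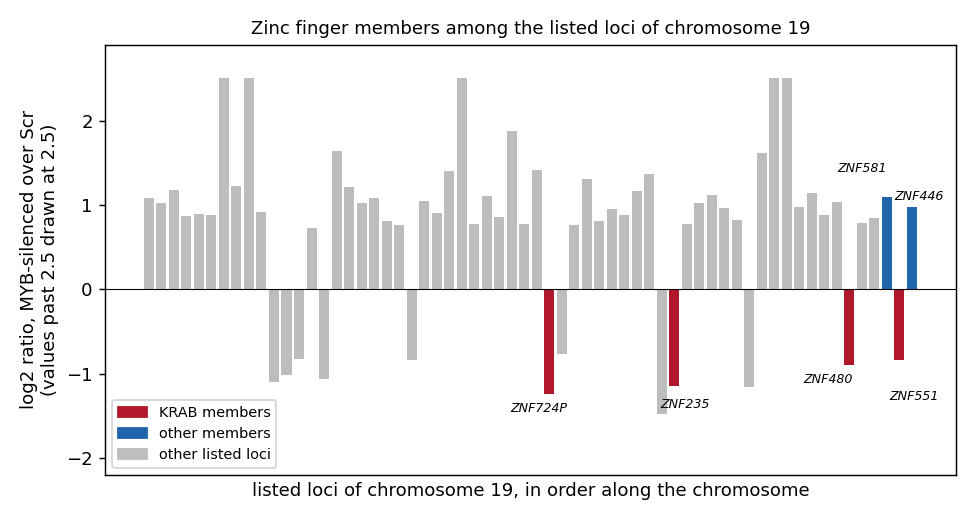
Log2 ratio (y, drawn up to 2.5) of the 62 listed loci of chromosome 19, in order along the chromosome (x), with KRAB members, other members and other loci in 3 colours. The 4 members with a KRAB match point down among loci that mostly point up, and the last 3 bars are members, 2 up and 1 down.

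The members did not form dense clusters within the table. Neighbouring members on chromosome 19 were 21.4, 7.99, 3.33, 2.04 and 0.785 Mb apart, so only ZNF551 and ZNF446 stood within 1 Mb of each other, and that pair had opposite directions. With a gap of 0.5 Mb there was no cluster. The genome around several members is nevertheless dense with family genes. Of the 10 nearest protein-coding genes in GENCODE release 29, 5 on each side, 9 carry one of the prefixes for each of ZNF724P, ZNF235, ZNF480 and ZNF107, and 8 do for ZNF551. For KLF9, both ZBTB genes, ZNF395 and ZNF641 none does. Across all members these neighbours come to 68 distinct family genes, and 0 of them were in the table. Of all family genes in GENCODE only 2.87% were listed, so 0 lies near that share. Whether the unlisted neighbours were expressed cannot be read from the table.

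Few family genes were listed at all. With KLF4 left out, GENCODE release 29 has 627 protein-coding genes with the prefixes. The 18 members are 2.87% of them, beside 797 listed of 19936 protein-coding genes (4.0%). With a KRAB match there were 351 genes and 7 listed (1.99%), and without it 276 genes and 11 listed (3.99%). On chromosome 19 the listed share was 6 of 267 family genes (2.25%). By family the table held 1 of 17 KLF genes other than KLF4, 2 of 42 ZBTB genes and 1 of 21 ZSCAN genes. It held 0 of 7 ZKSCAN genes, 0 of 25 ZFP genes and 14 of 515 ZNF genes. How many of the unlisted genes were too weakly expressed to be called is unknown.

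Transcript GC content moved with direction, among the members as in the table. Over the transcripts of each gene it had a median of 45.5% for the lower members and 62.6% for the higher members, beside 44.6% and 60.4% for lower and higher listed loci. KRAB members had a median of 47.8% (35.2% to 52.2%) and the others 61.7% (37.5% to 65.4%). In the longest coding transcript of each gene, the 9 members with the lowest GC content were all lower, and they fell in the 2 lowest of 5 GC bins, where 93.5% and 94.8% of all listed loci were lower. The 3 members in the highest bin, ZBTB42, ZBTB7B and ZNF467, were all higher, where 7.74% of listed loci were lower. KLF9 and ZNF641 were both higher in the middle bin, where 63.9% of listed loci were lower. ZNF395, ZNF446, ZNF516 and ZNF581 shared the fourth bin, with 50.3% of loci lower, and ZNF395 was the lower one. The bins depend on the measure, and the longest transcript was added after seeing the data. By the median over transcripts, ZNF395 fell in the highest bin, where 11.5% of listed loci were lower. The middle bin of that measure held 6 members, with 68.9% of its loci lower. The KRAB genes ZNF235, ZNF267, ZNF551 and ZNF724P were lower there, and KLF9 and ZNF641 higher. On chromosome 19 the 4 KRAB members ran from 38% to 50.8% GC, while the 56 other loci had a median of 61.5%. The KRAB class and GC content thus go together here, and their part in the directions was not tested.

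**Figure D3:**
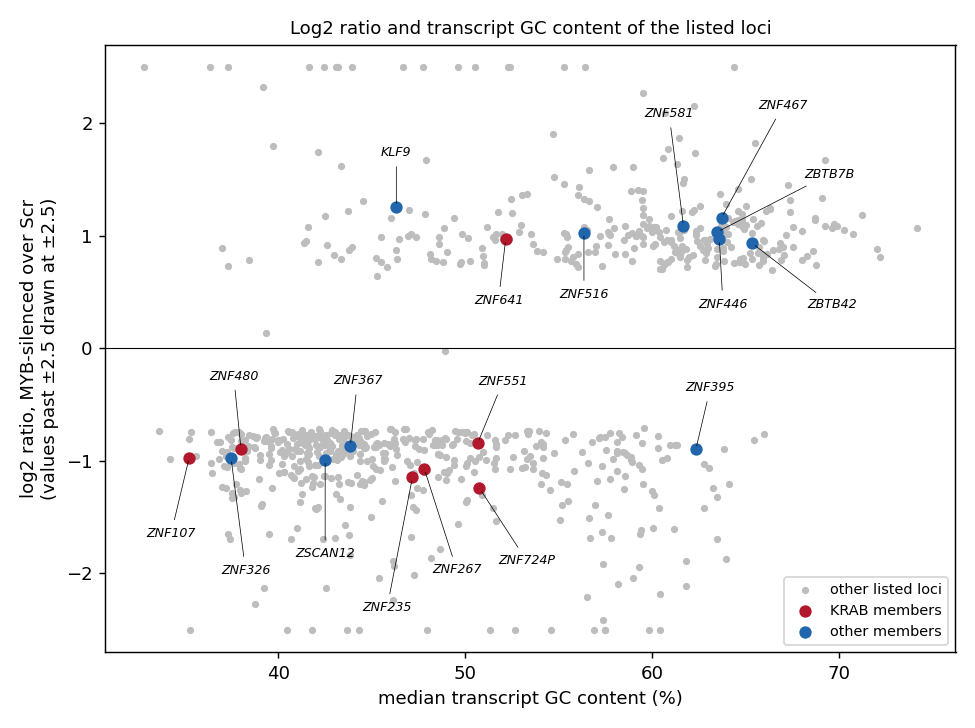
Log2 ratio (y, drawn within ±2.5) against median transcript GC content in percent (x) for the listed loci with a GC value, with KRAB members, other members and other loci in 3 colours. Lower members sit mostly at low GC content and higher members mostly at high GC content, with ZNF395 at 62.3% and KLF9 at 46.3% as exceptions.

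Some members share sequence or position with other genes, so their FPKM values are uncertain. For ZNF724P, 55.8% of the 50-base stretches of the longest coding transcript also occur in transcripts of other genes, chiefly an overlapping gene model without a symbol of its own, and also ZNF43, ZNF257 and ZNF107. For ZNF446 it is 59.1%, from ZNF324, which overlaps it on the same strand, and SLC27A5, for ZNF395 41.7%, from FBXO16, and for ZNF581 16.1%, from ZNF580. In the remaining 14 members the shared part was between 0 and 3.41%. ZNF235 also overlaps ZNF227 and ZNF233 on the opposite strand, ZNF551 overlaps ZNF154, ZNF446 overlaps SLC27A5 and ZBTB7B overlaps DCST2. ZNF641, ZNF480 and ZNF516 overlap antisense genes. Whether reads were assigned by strand is unknown.

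Of the corepressors and cofactors that zinc finger proteins recruit, 3 of a list of 41 were in the table, and TRIM28 and SETDB1 were not among them. Of all protein-coding genes, 4.0% were listed. UHRF1, which reads half-methylated DNA, was at 38.2 and 17.6 FPKM (log2 ratio -1.09). SUV39H1, a histone methyltransferase of heterochromatin, was at 17.1 and 9.41 FPKM (-0.83), and CHD3, a remodeller of the NuRD complex, was at 5.64 and 10.5 FPKM (0.84). So 2 of the 3 listed cofactors were lower, beside 61.7% of all listed loci.

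A list of 102 C2H2 factors that carry other names had 6 listed genes, 2 lower and 4 higher. The lower ones were OSR1, a factor of mesoderm and kidney, with 13.7 FPKM in control and 5.40 FPKM in silenced cells (log2 ratio -1.27), and the Ikaros relative IKZF2, with 1.38 and 0.436 FPKM (-1.01). The immediate-early genes EGR1, at 24.9 and 45.4 FPKM (0.85), and EGR3, at 1.40 and 3.66 FPKM (1.13), were higher. ZHX2 and PLAG1 were higher at low levels, with 0.432 and 1.09 FPKM for ZHX2 and 0.145 and 0.778 FPKM for PLAG1. IKZF2, ZHX2 and PLAG1 each had a mean below 1 FPKM. Among all listed loci 38.3% were higher, and 4.0% of all protein-coding genes were listed.

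When ratios were centred on the median of the listed loci, -0.80, which is a median over selected genes, all 18 members kept their sign, but the lower members then lay between -0.44 and -0.04 and the higher ones between 1.73 and 2.06.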

How the data were processed

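RNA of 1 Scr control and 1 MYB-silenced pool of MiaPaCa cells was sequenced. The authors deposited a table of FPKM values with a signed fold score, a p-value that is not adjusted and the log2 of the plain FPKM ratio. Per the submitters' processing notes, the tools were Bowtie, Cufflinks, TopHat and CASAVA 1.8.2 and the genome was hg19, with no roles or parameters. Depth, strand setting and library scaling were not given there. Members, lists and classes were chosen with earlier results of these data known. Printed starts are the table's starts raised by 1. Every member may be named, together with every listed gene of both lists.

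Ratios used a pseudocount of 0.5 FPKM, and counts of 2-fold differences a mean of at least 1 FPKM (Python 3.11.15, pandas 2.3.3). The design foresaw a RefSeq protein table for the KRAB class. It was replaced by translated GENCODE release 29 transcripts, and the threshold of 11 of 20 positions was set where scores of genes outside the family end (10) apart from genes at 15 or more. GC content was found for 822 of 836 loci (98.3%) by current or older symbol. The functions were tested on simulated data. Alternatives were pseudocounts, level filters, folds, centring, KRAB thresholds, cluster gaps and membership rules.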

Additional observations from a re-analysis of the deposited data

How the results depend on the processing

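The counts of 3 lower and 4 higher members by at least 2-fold depend on the scale. They were 5 and 7 with a pseudocount of 0.1, 10 and 7 at 1.5-fold, and 0 and 0 at 3-fold. Requiring a mean of at least 5 FPKM left 1 lower member by 2-fold and turned the chromosome 19 median to 0.0992, because fewer genes entered. Centring on the median of the listed loci gave 0 lower and 7 higher members by 2-fold, and medians of -0.066 for all members, -0.17 for KRAB members, 1.75 for other members and -0.064 for chromosome 19 members. A p-value of up to 0.01 in the authors' deposited table left 3 lower and 3 higher members. A looser KRAB match (9 positions) gave 2 higher KRAB members and a stricter one (13 positions) gave 0, with 6 lower in both. A gap of 0.5 Mb gave 0 clusters on chromosome 19. A pseudocount of 1 gave 2 lower members by 2-fold, a move of exactly 1.5 times. For the other summaries under that pseudocount, and for all run under no filter on low values, a gap of 2 Mb, joint locus names, members with a finger pattern, the narrower MYB motif and GC content of the longest coding transcript, the moves were smaller. GC by the longest transcript and the reading frame search were added after seeing the data. No paired analysis was possible because each group has 1 library, and for the same reason none was left out. Depth is unknown, and members under 1 FPKM in a library are the least certain.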

Other observations

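For 10 of the 18 members, the nearest listed locus on the chromosome had the other direction. The same count was not made for the other listed loci, of which both directions were common (61.7% lower and 38.3% higher in the whole table). Whether the count of 10 is particular to the members was therefore not tested, and the pairs below are single examples. KLF9 lies 29.7 kb from SMC5, a subunit of the SMC5/6 repair complex, which was lower in the MYB-silenced library (21 and 12.3 FPKM, log2 ratio -0.74) while KLF9 was higher. ZBTB7B lies 23.4 kb from CKS1B, a cell cycle kinase cofactor, which was lower (120 and 66.5 FPKM, ratio -0.85) while ZBTB7B was higher. ZNF467 lies 880 kb from EZH2, the catalytic subunit of a repressive histone methyltransferase complex, which was lower (27.5 and 13.4 FPKM). ZSCAN12 lay among loci of its own direction, with 3 listed loci within 1 Mb and all 3 lower, the nearest being the joint locus of HIST1H2BO and OR2B6 at 4.18 and 1.12 FPKM. ZNF581 had 1 listed locus within 1 Mb, NAT14, which was higher as well (19 and 34.4 FPKM).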
